A study of Rattus norvegicus with 9 samples.

Results

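Metallothioneins and zinc transporters were followed through 8 genes, picked by symbol: the metallothionein genes Mt1, Mt2A and Mt3, the zinc exporter genes Slc30a1 and Slc30a3, the zinc importer genes Slc39a10 and Slc39a14, and Mtf1, which encodes the zinc-sensing transcription factor. Each symbol matched 1 gene identifier among the 22050 genes of the deposited tables, and all 8 had enough reads to be tested. They were measured by RNA sequencing in primary cortical neurons of Sprague Dawley rats, prepared at embryonic day 19 and grown in Neurobasal-A medium with B27 supplement, in 9 libraries of 3 groups with 3 libraries each. Cells of the first group were deprived of oxygen and glucose (OGD), which models ischaemia in culture, brought back to normal oxygen, and given the proteins Wnt3a at 100 ng/ml and Rspondin 1 at 50 ng/ml; the protocol states 24 h for this treatment. Those of the second group had OGD alone, that is 4.5 h at 1% oxygen in medium without glucose and pyruvate, followed by a return to normal oxygen and regular medium. Control cells were untreated. Wnt3a is a secreted ligand of Wnt/beta-catenin signalling and Rspondin 1 makes cells more responsive to such ligands. The deposited headers call the group with OGD alone Vehicle. The labels give the length of OGD and the oxygen level for OGD alone only, and the 24 h of treatment for the first group only. They do not state how long after OGD the cells were harvested or that replicates came from separate cultures, so p-values here speak of the variation among these samples, part or all of which may be technical.

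Zinc inside cells is held at very low free levels. Metallothioneins, small cysteine-rich proteins, bind zinc and release it under oxidation. Transporters of the SLC30 (ZnT) family move zinc out of the cytosol, either out of the cell or into vesicles, and those of the SLC39 (ZIP) family move it into the cytosol. When free zinc rises, the protein MTF1 binds metal response elements, short motifs in the promoters of Mt1, Mt2A and Slc30a1, and increases their transcription, while in mice and zebrafish it represses Slc39a10. In cortex, zinc is stored with glutamate in the synaptic vesicles of a part of the excitatory neurons, loaded there by ZnT3, the product of Slc30a3, and is set free in ischaemia. Mt3 is a form found mostly in the brain and responds little to metals, in contrast to Mt1 and Mt2A, which in the brain are made mainly by astrocytes.

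Total counts ran from 14285914 to 25048521 per library. Control libraries stood far from the other 6 on the first principal component of log2 CPM (counts scaled to library depth; 84.1% of the variance). The second component (4.63%) set OGD replicate 1 apart, so results that rest on it are also given without it. The cultures held more than neurons, also in the control group. The summed level of 11 astrocyte markers was 6542 to 6839 FPKM (fragments scaled to transcript length and library depth) with OGD plus Wnt3a and Rspondin 1, 7029 to 7681 FPKM with OGD alone and 2930 to 3103 FPKM in controls. That of 12 pan-neuronal markers was 490 to 635, 486 to 658 and 2913 to 3060 FPKM in the same order, and that of 9 markers of excitatory neurons was 43.9 to 67.3, 45.8 to 71.6 and 380 to 392 FPKM. All 12 pan-neuronal and all 9 excitatory markers fell in OGD alone against control, while 9 of 11 astrocyte markers rose and 1 fell (Glul, named after its value was seen). Of all tested genes, 73.1% passed in that comparison, 36.3% higher and 36.8% lower. Microglial markers (12 measured) summed to 47.2 to 51.8, 41.3 to 52.2 and 13.5 to 17 FPKM, and 7 markers of mural cells and fibroblasts to 638 to 758, 669 to 884 and 92.4 to 116 FPKM. Neural progenitor markers (9) summed to 4025 to 4531, 4010 to 4578 and 1047 to 1179 FPKM, oligodendrocyte lineage markers (11) to 1065 to 1153, 1104 to 1113 and 436 to 523 FPKM, and inhibitory neuron markers (10) to 140 to 143, 102 to 131 and 552 to 570 FPKM. Endothelial markers (6) summed to 15.1 to 15.6, 15 to 16.8 and 29.8 to 34.2 FPKM. These sums hide members that went different ways in OGD alone against control. All 9 tested microglial markers rose. Of 8 tested progenitor markers 6 rose, Hes5 fell and Hes1 did not pass. Fabp7 and Vim made up most of the progenitor sum, with 2738 ± 133 and 1390 ± 158 FPKM with OGD alone (SD, n = 3 each). Of 11 oligodendrocyte lineage markers 6 rose while Cspg4, Mog and Pdgfra fell. Most of the mural and fibroblast sum was Tagln (684 ± 58.1, 749 ± 106 and 96.8 ± 10.8 FPKM, SD, n = 3 each), which rose with Acta2 and Pdgfrb, while the fibroblast markers Dcn and Lum fell. Nearly all of the endothelial sum was Ramp2, which fell, while Kdr and Tek rose. These marker genes were named after their values were seen. Cldn5 of endothelium was at 0 in all libraries, and Rgs5 of mural cells in the controls. In such bulk samples, fewer cells of a type and less RNA per cell cannot be told apart.

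The metallothionein genes Mt1, Mt2A and Mt3 were all higher after OGD than in control cells, Mt1 by the largest factor of the 3. Mt1 stood at 701, 561 and 603 FPKM in OGD replicates 1 to 3, against 35.7, 35.9 and 43 FPKM in control replicates 1 to 3. Every OGD library lay far above every control library. The log2 change, from counts scaled between libraries, was 3.93 ± 0.12 (change ± SE, 15.3-fold, adjusted p = 2.39e-10 by the quasi-likelihood test of edgeR, adjusted after Benjamini and Hochberg over 13693 tested genes). Of these genes, 16 had a larger log2 change. Mt2A, the other form that metals induce in many tissues, had 2881, 2187 and 2142 FPKM with OGD alone and 258, 269 and 295 FPKM in controls. Its groups did not overlap, with a log2 change of 3.05 ± 0.12 (8.27-fold, adjusted p = 5.55e-10 by edgeR).

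Mt3, the brain form, already had a high level in control cells, at 694, 699 and 674 FPKM, and stood at 2620, 1722 and 1661 FPKM with OGD alone. The groups did not overlap, but the 3 OGD libraries were uneven, with replicate 1 well above the other 2. The log2 change was 1.46 ± 0.16 (2.74-fold, adjusted p = 5.04e-06), and without OGD replicate 1 it was 1.20 (adjusted p = 2e-09). For Mt1 and Mt2A the changes without that library were 3.83 and 2.89. Reads of Mt1 and Mt2A may be split with similar sequences elsewhere in the genome, such as Mt1m, listed as a pseudogene in RefSeq, so their levels carry that uncertainty; Mt1m itself had 0 to 2 reads per library.

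**Figure D1:**
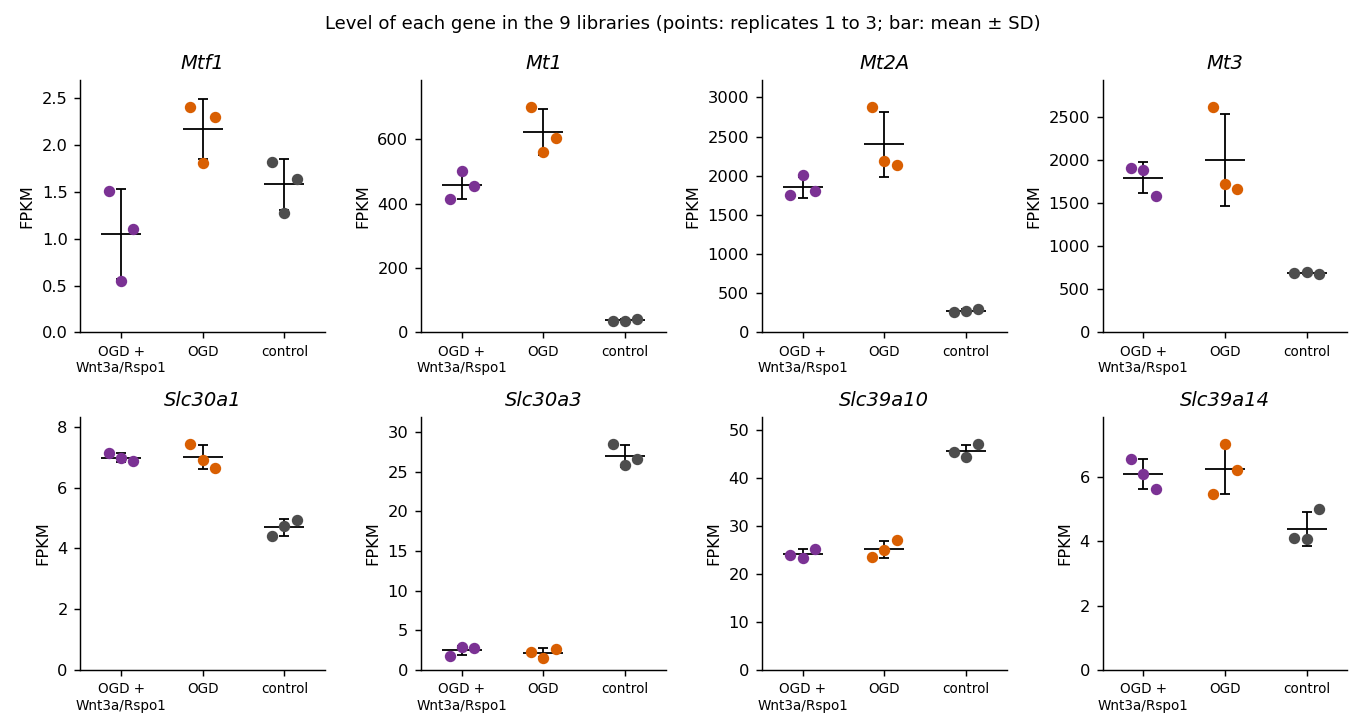
Level in FPKM (vertical axes, linear from 0) of the 8 genes in the 9 libraries, with OGD plus Wnt3a and Rspondin 1, OGD alone and control from left to right; points are replicates and bars give the mean ± SD of 3. Mt1, Mt2A and Mt3 are lowest in controls, Slc30a3 and Slc39a10 are highest there, and Mt3 has OGD replicate 1 at 2620 FPKM above the other 2 at 1722 and 1661.

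Together the 3 metallothionein mRNAs came to 4078, 4395 and 3850 FPKM in the libraries with OGD plus Wnt3a and Rspondin 1, to 6202, 4470 and 4406 FPKM with OGD alone, and to 988, 1004 and 1012 FPKM in controls. That was 0.73% to 0.8%, 0.833% to 1.14% and 0.203% to 0.207% of the summed FPKM of all genes. The make-up of this sum also differed. Mt3 held 43.7% ± 2.87 of it with OGD plus Wnt3a and Rspondin 1 and 39.5% ± 2.42 with OGD alone, against 68.8% ± 1.96 in controls (mean ± SD, n = 3 each). The share of Mt2A was 45.2% ± 2.01, 48% ± 1.35 and 27.4% ± 1.59 in the same groups, and that of Mt1 was 11.1% ± 0.861, 12.5% ± 1.19 and 3.81% ± 0.377. Thus Mt3 was the leading form in controls, at more FPKM than Mt2A in each library. With OGD alone Mt2A was above Mt3 in each of the 3 libraries, although the ranges of the 2 genes overlapped (2142 to 2881 and 1661 to 2620 FPKM), and with the added proteins they overlapped as well.

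**Figure D2:**
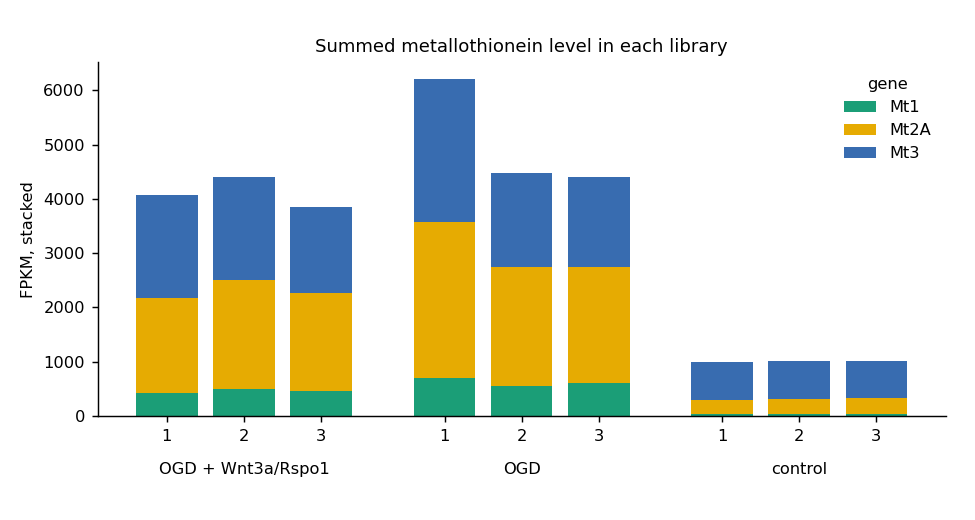
Stacked FPKM of Mt1, Mt2A and Mt3 (vertical axis, from 0) in each library, numbered by replicate within OGD plus Wnt3a and Rspondin 1, OGD alone and control from left to right. Controls sum to 988 to 1012 FPKM and are mostly Mt3, while OGD replicate 1 reaches 6202 FPKM.

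Mt1 and Mt2A did not change by the same factor. The log2 ratio of Mt1 to Mt2A, taken within each library so that library scaling cancels, was -2.01, -1.94 and -1.80 with OGD alone and -2.83, -2.88 and -2.75 in controls. All OGD libraries lay above all control libraries, by 0.90 on average (exact permutation test, two-sided, p = 0.1, which is the smallest value that 3 against 3 libraries can give). With Wnt3a and Rspondin 1 added to OGD it was -2.05, -1.98 and -1.96, a difference of -0.08 from OGD alone (exact permutation p = 0.4) with overlapping groups.

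Astrocyte markers rose beside the metallothioneins, as given above. Set against the summed FPKM of the 11 astrocyte markers in the same library, Mt1 was still 2.75 higher on the log2 scale with OGD alone than in controls, and Mt2A was 1.84 higher (2.69 and 1.74 without OGD replicate 1). For Mt3 the same difference was 0.23, with log2 ratios of -1.55, -2.07 and -2.08 with OGD alone and -2.13, -2.15 and -2.12 in controls. The 3 OGD libraries lay above the controls for Mt3 too, 2 of them by less than 0.1, and the difference was 0.06 without OGD replicate 1. Gfap averaged 3498 of the 7317 FPKM of the astrocyte sum with OGD alone. In controls Gfap, Aldoc and Glul averaged 903, 667 and 466 of 3021 FPKM. On the log2 scale Gja1 (2.03 ± 0.07) and Gfap (1.89 ± 0.09) rose more than Mt3. Slc1a2 rose less (0.62 ± 0.12) and Glul fell (-0.36 ± 0.07), so the Mt3 ratio depends on the markers summed. The part of microglia, progenitors, oligodendrocyte lineage cells, mural cells and fibroblasts, whose summed markers also differed, with members that went either way as given above, was not tested.

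The promoters of the metallothionein genes and of Slc30a1 are shown because metals act on Mt1, Mt2A and Slc30a1 through short motifs there. Mt3, which responds little to metals, is shown beside them. Each sequence below holds the 250 bases before the start that the RefSeq promoter table uses, 5′ to 3′ on the strand of the gene, from RefSeq on rat build GRCr8, with capitals marking each match to the core of the metal response element, TGCACNC or TGCGCNC on either strand:
Mt1 (chr19:10832976-10833225, minus strand): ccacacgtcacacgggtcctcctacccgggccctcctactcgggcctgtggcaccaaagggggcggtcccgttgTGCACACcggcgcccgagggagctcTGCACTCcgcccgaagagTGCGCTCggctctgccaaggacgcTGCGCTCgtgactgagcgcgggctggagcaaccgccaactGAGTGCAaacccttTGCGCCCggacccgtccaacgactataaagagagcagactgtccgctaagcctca
Mt2A (chr19:10838709-10838958, minus strand): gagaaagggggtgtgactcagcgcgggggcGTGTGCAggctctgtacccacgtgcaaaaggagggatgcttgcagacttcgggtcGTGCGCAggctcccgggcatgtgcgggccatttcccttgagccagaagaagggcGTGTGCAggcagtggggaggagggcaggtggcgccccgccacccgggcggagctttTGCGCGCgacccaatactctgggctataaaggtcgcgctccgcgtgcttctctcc
Mt3 (chr19:10856081-10856330, minus strand): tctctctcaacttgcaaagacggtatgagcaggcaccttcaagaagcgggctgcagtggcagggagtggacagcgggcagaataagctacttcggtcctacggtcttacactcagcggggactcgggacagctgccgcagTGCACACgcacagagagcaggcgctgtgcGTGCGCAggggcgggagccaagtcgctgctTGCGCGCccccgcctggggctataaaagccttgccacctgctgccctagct
Slc30a1 (chr13:106021769-106022018, plus strand): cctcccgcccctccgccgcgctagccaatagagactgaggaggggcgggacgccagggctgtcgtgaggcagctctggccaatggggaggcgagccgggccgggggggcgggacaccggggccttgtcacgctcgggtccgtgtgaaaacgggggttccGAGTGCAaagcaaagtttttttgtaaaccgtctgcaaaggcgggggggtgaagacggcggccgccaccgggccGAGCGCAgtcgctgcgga
The Mt1 window held 6 matches, that of Mt2A 4, that of Mt3 3 and that of Slc30a1 2. Mtf1 had 2 matches as well, and for Slc39a14 no window was used here. The windows of Slc30a3 and Slc39a10 held none, but both lie inside the span of the gene in RefSeq, so they belong to an internal start and say nothing of the sequence before the first start. The Mtf1 window runs slightly past the first base of its gene. Among 33469 promoter windows of the same length, 20.6% held at least 1 match, 4.9% at least 2, 1.17% at least 3, 0.266% at least 4 and 0.0747% at least 5. These windows were not matched for base composition, and those printed above were 62.8% (Mt3) to 69.2% (Slc30a1) G or C. The core of the antioxidant response element, TGACNNNGC on either strand, matched once each in Mt1, Mt2A and Slc30a1 and at 2 places in Mtf1, against 10.1% of all windows with a match, and overlapped none of the metal motif matches. It was not found in the windows of Mt3, Slc30a3 and Slc39a10. In the RefSeq assembly Mt1, Mt2A, Mt3 and Mt4 are neighbours on chromosome 19. Such matches describe letters, and no binding was measured.

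**Figure D3:**
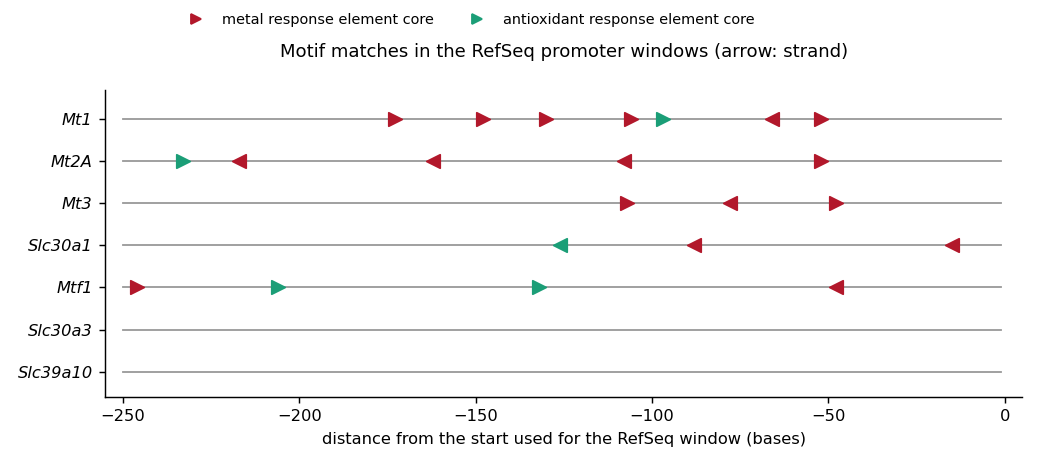
Matches to the metal response element core (red) and the antioxidant response element core (green) in the 250 bases before the start that the RefSeq promoter table uses for 7 genes (an internal start for Slc30a3 and Slc39a10); the horizontal axis is the distance from the start in bases, and arrows give the strand of each match relative to the gene. Mt1, Mt2A and Mt3 carry 6, 4 and 3 metal motif matches, and the windows of Slc30a3 and Slc39a10 carry none.

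Mtf1, the sensor, was a gene of low level, with 40 to 177 reads per library. It stood at 1.51, 0.55 and 1.10 FPKM with OGD plus Wnt3a and Rspondin 1, at 2.41, 1.81 and 2.30 FPKM with OGD alone and at 1.82, 1.28 and 1.64 FPKM in controls. OGD alone and control overlapped, and the log2 change between them was 0.35 ± 0.27 (adjusted p = 0.246 by edgeR). The mRNA of the sensor gave no call in the comparison in which Mt1, Mt2A and Slc30a1 passed. The amount and activity of the MTF1 protein were not measured.

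Slc30a1 encodes ZnT1, which exports zinc across the plasma membrane. It had 7.43, 6.92 and 6.66 FPKM with OGD alone and 4.40, 4.74 and 4.94 FPKM in controls. The groups were separate but close, with a log2 change of 0.49 ± 0.10 (1.41-fold, adjusted p = 0.000563 by edgeR). In the other direction, Slc30a3, the vesicular transporter, was far lower. Its level was 2.18, 1.54 and 2.66 FPKM with OGD alone and 28.5, 25.9 and 26.6 FPKM in controls, that is 61, 67 and 82 reads against 1121, 792 and 1304. This was a log2 change of -3.78 ± 0.19 (13.7-fold lower, adjusted p = 2.18e-09).

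Slc17a7 encodes VGLUT1, the glutamate transporter of the same vesicles, and fell alongside, by 3.55 ± 0.25 on the log2 scale. It stood at 12.3, 12.2 and 20.6 FPKM with OGD alone and 167, 162 and 165 FPKM in controls. Within each library the log2 ratio of Slc30a3 to Slc17a7 was -3.06, -3.55 and -3.51 with OGD alone and -3.12, -3.21 and -3.20 in controls. These groups overlapped, and their means differed by -0.20 (exact permutation p = 0.4). Against the summed 9 excitatory markers, which include Slc17a7, Slc30a3 was 0.85 lower on the log2 scale after OGD, and against the 12 pan-neuronal markers it was 1.27 lower. Slc30a3 was thus lower relative to either sum, while a difference relative to Slc17a7 was not detectable with 3 libraries per group. The first result depends on the markers summed. Tubb3 and Stmn2 (1205 and 686 of 2963 FPKM of the pan-neuronal sum in controls) changed by -2.57 and -2.70. Single changes ran from -1.58 (Map2) to -3.72 (Syt1) in that list. Among excitatory markers they ran from -1.90 (Emx1) to -3.76 (Camk2a), near that of Slc30a3.

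**Figure D4:**
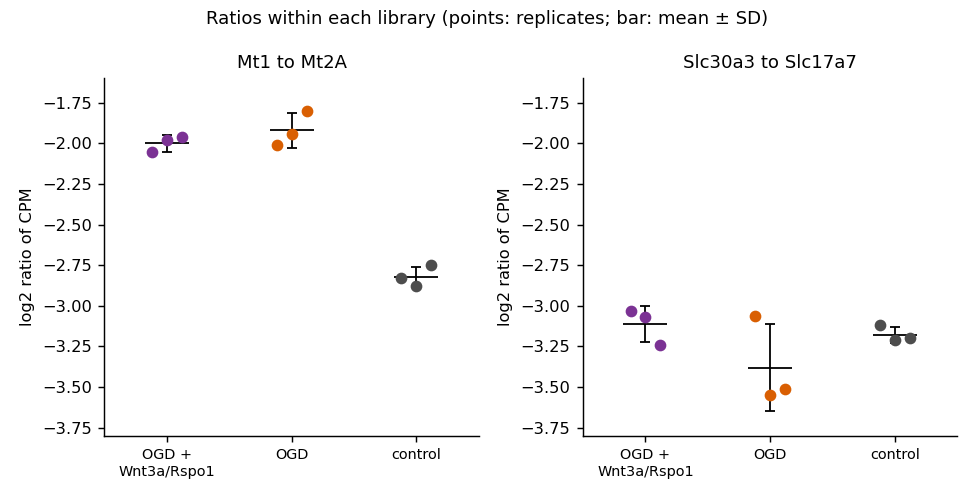
Log2 ratio of CPM (vertical axes) of Mt1 to Mt2A and of Slc30a3 to Slc17a7 within each library, for OGD plus Wnt3a and Rspondin 1, OGD alone and control from left to right; points are replicates and bars give the mean ± SD of 3. The Mt1 to Mt2A ratio is near -2 in both OGD groups and -2.82 in controls, while the ranges of Slc30a3 to Slc17a7 overlap among groups.

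The importer Slc39a10 (ZIP10) stood at 23.4, 24.9 and 27 FPKM with OGD alone and at 45.4, 44.4 and 47 FPKM in controls. All OGD libraries were lower, with a log2 change of -0.97 ± 0.07 (1.96-fold lower, adjusted p = 8.15e-08 by edgeR). Relative to the summed pan-neuronal markers, which fell further, it was 1.57 higher on the log2 scale after OGD. Slc39a14 (ZIP14), which also carries iron and manganese, had 5.48, 7.03 and 6.22 FPKM with OGD alone and 4.11, 4.08 and 5.01 FPKM in controls. The groups were separate by a narrow margin, and the gene rose by 0.42 ± 0.12 (1.34-fold, adjusted p = 0.00566). The summed astrocyte markers rose more, so that against their sum Slc39a14 was 0.77 lower. Of these 11 markers 9 rose, Glul fell and Aldoc did not pass, so this ratio too depends on the markers summed.

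In all, 7 of the 8 genes passed in OGD alone against control, 5 higher and 2 lower, while 73.1% of all tested genes passed in that comparison, 36.3% higher and 36.8% lower. The libraries of the 2 groups did not overlap in 7 of the 8 genes, against 75.1% of all genes. Their median log2 change was 0.45, beside 0.02 for all tested genes. A count of 7 in 8 is close to that background. By size, Mt1 ranked 17 and Mt2A 49 among the rises, and Slc30a3 ranked 116 among the falls. By level per length, the order in controls was Mt3, Mt2A, Slc39a10, Mt1, Slc30a3, Slc30a1, Slc39a14 and Mtf1, from 689 ± 13.1 to 1.58 ± 0.275 FPKM (mean ± SD, n = 3), and among neighbours only Slc30a1 and Slc39a14 overlapped. With OGD alone it was Mt2A, Mt3, Mt1, Slc39a10, Slc30a1, Slc39a14, Mtf1 and Slc30a3, from 2404 ± 414 to 2.13 ± 0.562 FPKM, and the pairs Mt2A and Mt3, Slc30a1 and Slc39a14, and Mtf1 and Slc30a3 overlapped.

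The rest of both transporter families moved both ways. Of 10 Slc30 genes 8 were tested, of which 2 rose and 4 fell in OGD alone against control (median log2 change -0.23, all genes 0.02), near the 73.1% of all genes that passed. Beside Slc30a1, the riser was Slc30a7 (0.66 ± 0.13), which loads zinc into the early secretory pathway. Beside Slc30a3, Slc30a4 fell by 1.17 ± 0.11, Slc30a10, best known as a manganese exporter, by 0.45 ± 0.09, and Slc30a9 by 0.33 ± 0.09. Slc30a5 and Slc30a6, which work as a pair in the secretory pathway, had changes of -0.13 ± 0.09 and 0.28 ± 0.12 and did not pass (adjusted p = 0.186 and 0.055 by edgeR). When libraries were scaled by their totals alone, 3 rose and 4 fell.

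Of 14 Slc39 genes 13 were tested, and all 13 passed in OGD alone against control, 9 higher and 4 lower (median log2 change 0.42), beside 36.3% of all genes higher and 36.8% lower. Slc39a1 (ZIP1), a transporter of the cell surface, had 121, 115 and 117 FPKM with OGD alone and 33.9, 34.7 and 32.9 FPKM in controls. The 2 groups were tight and far apart (1.71 ± 0.07, adjusted p = 5.08e-10 by edgeR). Slc39a12, a brain-enriched importer, rose by 2.47 ± 0.24 at a low level, with 2.84 to 3.50 FPKM against 0.35 to 0.70 FPKM in controls. The largest log2 change of the family was that of Slc39a4 (3.04 ± 0.39), from only 3 to 11 reads per control library. Slc39a11 rose by 1.04 ± 0.08 and Slc39a13, which acts in the secretory pathway, by 0.82 ± 0.10. Beside Slc39a10, its close relative Slc39a6 fell by 0.81 ± 0.09, Slc39a5 by 0.86 ± 0.11 and Slc39a3 by 0.55 ± 0.09. These changes came beside the higher astrocyte and lower neuronal marker sums given above, and the part of cell types in them was not tested.

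**Figure D5:**
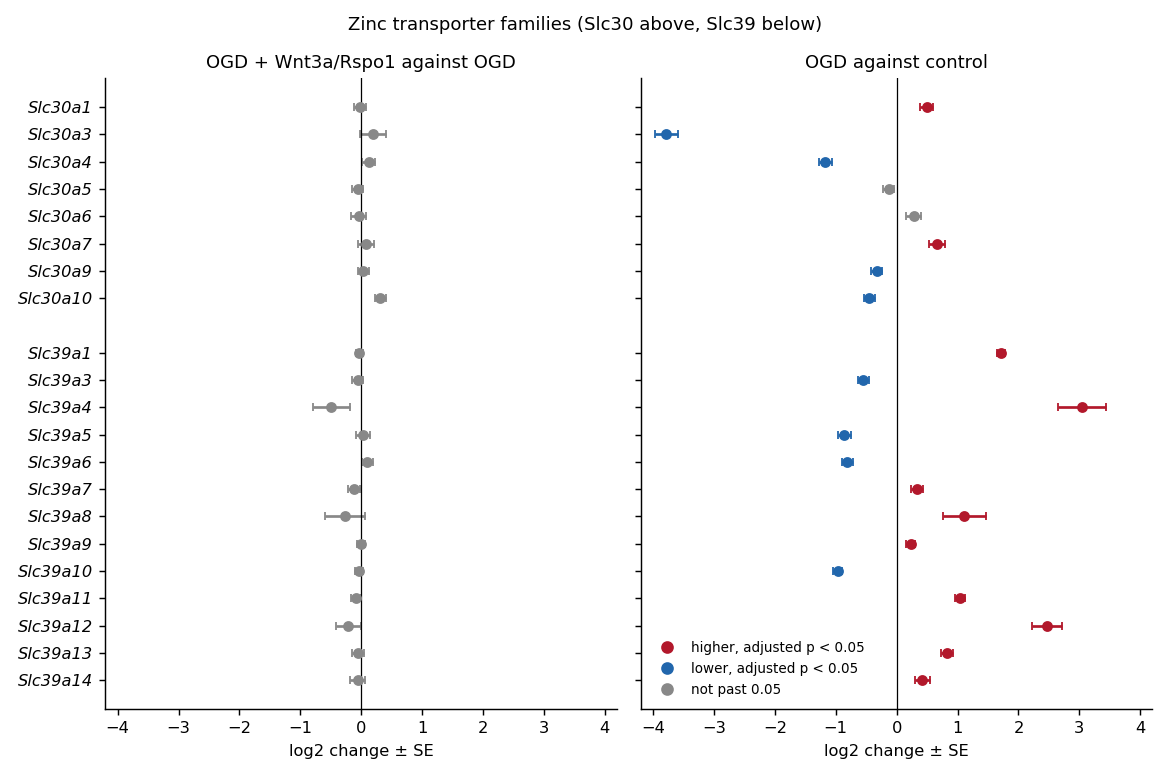
Log2 change ± SE (horizontal axes) of the tested Slc30 and Slc39 genes for OGD plus Wnt3a and Rspondin 1 against OGD alone (left) and OGD alone against control (right); red and blue mark genes higher or lower past an adjusted p of 0.05. No gene is coloured on the left, while on the right Slc30a3 lies at -3.78 and Slc39a1 at 1.71.

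The comparison of OGD plus Wnt3a and Rspondin 1 with OGD alone concerns the 2 added proteins. The labels do not state that OGD, the time after it and handling were otherwise the same. None of the 8 genes passed by edgeR, while 27 of all tested genes (0.197%) passed, 0.175% higher and 0.0219% lower. An unadjusted p under 0.05 by edgeR was found for 3 of the 8 (Mt1, Mt2A and Mtf1), beside 784 of all 13693 tested genes. Mt1 stood at 415, 500 and 456 FPKM with the proteins and at 701, 561 and 603 FPKM with OGD alone. All 3 treated libraries were lower, but the gap between the groups was smaller than the spread within OGD alone, and the log2 change was -0.46 ± 0.10 (unadjusted p = 0.000622, adjusted p = 0.125 by edgeR). Methods differed on this gene. DESeq2 gave an adjusted p of 0.0103, and the authors' deposited table lists an FDR of 0.0169. Across the alternatives the log2 change ran from -0.54 to -0.36 and the adjusted p from 0.0103 to 0.463, with -0.36 (adjusted p = 0.133) without OGD replicate 1.

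Mt2A had 1753, 2004 and 1807 FPKM with the proteins and 2881, 2187 and 2142 FPKM with OGD alone. Its groups did not overlap either, as was so for 9.57% of all tested genes (1311) in CPM and for 3 of the 8 genes here (Mt1, Mt2A and Mtf1). The log2 change of Mt2A was -0.40 ± 0.11 (adjusted p = 0.37 by edgeR), and without OGD replicate 1 it was -0.23. Mt3, at 1910, 1890 and 1587 FPKM with the proteins, overlapped with OGD alone (-0.18 ± 0.16, adjusted p = 0.976) and had a change of 0.08 without OGD replicate 1.

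Mtf1 was lower in the treated libraries, with the FPKM values given above, by a log2 change of -1.05 ± 0.28 (unadjusted p = 0.00261, adjusted p = 0.308 by edgeR). Its 3 treated libraries were widely spread, with 130, 40 and 78 reads against 148, 173 and 156 with OGD alone. DESeq2 gave an adjusted p of 0.0434, and the authors' deposited table an FDR of 0.0836. Without treated replicate 2, the lowest library, the change was -0.74 (adjusted p = 0.68), and without treated replicate 1 it was -1.42 (adjusted p = 0.0918). The remaining genes lay close to OGD alone. The log2 change was -0.02 ± 0.10 for Slc30a1, 0.19 ± 0.21 for Slc30a3, -0.04 ± 0.07 for Slc39a10 and -0.06 ± 0.12 for Slc39a14. Of the 8 tested Slc30 and 13 tested Slc39 genes none passed by edgeR or DESeq2. By edgeR 1 and 0 of them had an unadjusted p under 0.05, beside 784 of all 13693 tested genes. Their log2 changes ran from -0.06 to 0.31 (Slc30a10, 0.31 ± 0.09, adjusted p = 0.442 by edgeR) and from -0.49 to 0.10. The summed astrocyte markers were 6542 to 6839 FPKM with the proteins and 7029 to 7681 FPKM with OGD alone, and relative to them the log2 difference was -0.31 for Mt1 and -0.23 for Mt2A. Without OGD replicate 1 it was -0.26 and -0.13. Over all libraries the Mt2A ratios of the groups met at -1.73 after rounding. They were -1.96, -1.73 and -1.86 with the proteins and -1.41, -1.73 and -1.71 with OGD alone.

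Against the same controls, which both comparisons share, the log2 change in OGD plus Wnt3a and Rspondin 1 was 3.47 ± 0.12 for Mt1, 2.65 ± 0.12 for Mt2A and 1.28 ± 0.16 for Mt3. It was 0.47 ± 0.10 for Slc30a1, -3.59 ± 0.19 for Slc30a3, -1.01 ± 0.07 for Slc39a10 and 0.36 ± 0.12 for Slc39a14. All 8 genes passed here by edgeR, 5 higher and 3 lower, while 72.6% of all tested genes passed (36.6% higher and 36.0% lower). The libraries did not overlap in 7 of the 8, against 78.7% of all genes. The call of Mtf1 (-0.69 ± 0.28, adjusted p = 0.0408) rested on single libraries, since it was lost without treated replicate 2 (-0.38, adjusted p = 0.137) or 3 (0.0862), control replicate 1 (0.131) or 3 (0.0974), and OGD replicate 1 (0.0604) or 3 (0.0522), and it was -1.06 without treated replicate 1. The call of Slc39a14 (adjusted p = 0.0131) was lost without treated replicate 1 (0.0556) or control replicate 1 (0.0518).

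Genes with the most similar pattern were looked for among 11835 genes, by the root mean square difference of centred log2 CPM over the 9 libraries, as a description with no test. For Mt1 these were Lgals3 (0.25), Scn7a (0.29), Cebpd (0.31), Plin5 (0.33) and Itgb4 (0.35), where the median gene differed by 1.76. Lgals3, which encodes galectin-3, averaged 307 ± 30.3 FPKM with OGD plus Wnt3a and Rspondin 1, 336 ± 36.5 FPKM with OGD alone and 18.3 ± 3.18 FPKM in controls (SD, n = 3 each). For Mt3 they were Cib1 (0.07), Ckb (0.08), Cyp4f6 (0.08), Grhpr (0.10) and Acads (0.10), with a median of 0.68 over all genes. Ckb, the brain creatine kinase, averaged 4450 ± 324, 4884 ± 749 and 1678 ± 88.2 FPKM in the same order of groups. For Slc30a3 they included Pgbd5 (0.08), Camk2a (0.09), Ache (0.12) and Nkd2 (0.15), with a median of 1.77. Camk2a, a kinase of excitatory synapses that is also in the excitatory marker list, averaged 4.48 ± 0.984, 3.98 ± 0.909 and 49.9 ± 2.91 FPKM. All these values are over the same 9 libraries, which fall into 2 sets, the controls and the rest.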

How the data were processed

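The authors deposited 1 full table per pair of groups, and the 18 count and FPKM columns of the 9 libraries, each present in 2 tables, were identical in both. The deposited counts are whole reads per gene without normalization, per the file headers. FPKM values were deposited too. Per the file headers they are scaled by length and depth, with an implied length that was constant for Mt1 (389 bases) and differed between libraries for Slc39a10 (4230 to 4485 bases). The log2 fold, p-value and FDR columns are the authors' deposited results, by a test not given in the sources used here. Bowtie 0.12.2 and mouse genome builds (mm8, mm9) are named by the submitters' processing notes, although identifiers are of rat Ensembl genes, so the aligner, rat build, strand setting and counter are not given in the sources used here. Libraries were made from total RNA with an Illumina TruSeq kit, per the labels' protocols.

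Tests on counts used edgeR 4.0.16 (R 4.3.3) after a filter by a minimum count of 10 in 3 libraries and a minimum total of 15, which left 13693 genes. TMM factors (0.943 to 1.033) and 1 robust quasi-likelihood fit of 3 group means over all 9 libraries were used, with Benjamini-Hochberg adjustment over all tested genes and a limit of 0.05. The prior count was 0.125 for log2 changes, whose SE was derived from the F statistic. Column names and sample titles gave the groups. On data simulated for OGD alone against control (13524 genes), 49.2%, 84.8% and 97% of altered genes were found at log2 sizes of 0.5, 1 and 2. For OGD plus Wnt3a and Rspondin 1 against OGD alone (13547 genes) the shares were 53.7%, 91% and 98.5%. Unaltered genes made up 18 of 170 simulated calls in the former and 9 of 171 in the latter. Only 200 genes were altered in each simulation, while the real data gave 10012 and 27 calls. The shares therefore do not carry over directly to the real comparisons. A gene with 0 reads could be present at up to 3 counts per library (0.12 to 0.21 CPM), which covers counting error only. The alternatives were RLE factors, library totals, no filter, DESeq2 1.42.0, only the 6 libraries compared, a replicate block and leaving out each library. Sequences came from RefSeq (GRCr8), with 7 of 8 members matched.

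The members and lists were chosen with earlier results of these data known. Named genes were all 8 members, up to 4 genes per list and direction with the smallest adjusted p in OGD alone against control, the 5 genes most like Mt1, Mt3 and Slc30a3 where some group averaged 1 FPKM or more (1 of them is not reported here), and Slc17a7. Outside this rule, Slc30a5, Slc30a6, Slc30a8, Slc39a4, Mt4, Mt1m, Slc7a11 and single cell type marker genes were named after their values were seen.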

Additional observations from a re-analysis of the deposited data

How the results depend on the processing

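In OGD alone against control, 7 of the 8 genes passed under every alternative run, and all 120 refits of single genes kept direction and call; in OGD plus Wnt3a and Rspondin 1 against control, 6 to 8 passed. Against OGD alone, the count of passing genes was 0 by edgeR with each other setting except the replicate block (1, Mtf1 at -1.12, adjusted p = 0.0217), and 2 by DESeq2 (Mt1 and Mtf1). Over all genes that comparison gave 27 calls, 99 by DESeq2, 15 with only the 6 libraries compared, 65 with the replicate block and 12 to 49 when 1 library was left out (49 without OGD replicate 1). Without treated replicate 2 or 3, or OGD replicate 2, it gave 12, 17 and 13. Of these calls 88.9% were higher by edgeR, 60.6% by DESeq2 and 66.2% with the block. The labels do not say that replicate numbers mark anything shared, and same-numbered deviations did not all correlate above 0.1, so the block was no main result. Against OGD alone the correlations were 0.232, 0.073 and 0.267, and every treated library correlated best with the OGD library of its own number, a hint of pairing from the data, not the design; against control they ran from -0.069 to 0.273. The block changed no other call of the 8 genes. Library totals moved the median of all genes against control to 0.10 with OGD alone (0.02 with TMM factors) and to 0.14 with the proteins (0.03 with TMM factors), and the call of Mtf1 against control was lost with them (-0.58, adjusted p = 0.0809) and with only the 6 libraries compared (-0.71, 0.0544). The cause was not tested. The family and list counts without OGD replicate 1 or with library totals, and the ratios to markers without OGD replicate 1, were added after seeing the data. The ratios of Mt1 to Mt2A and of Slc30a3 to Slc17a7 kept their direction under every alternative run. Depth limits Mtf1 and Slc30a3, at 40 to 177 reads and, in the OGD groups, 61 to 95 reads per library.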

Other observations

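Of 12 other genes that metals induce in cultured cells, 10 were measured, and all 10 passed in OGD alone against control by edgeR, 7 higher and 3 lower (median log2 change 1.03, all genes 0.02, 73.1% of genes called). Among the risers were Hspb1, a small heat shock protein (3.06 ± 0.14), Hmox1, which degrades haem (2.04 ± 0.07), Nqo1, a quinone reductase (1.86 ± 0.09), and Gclc, of glutathione synthesis (1.19 ± 0.07). The chaperone genes Hspa1b (-0.98 ± 0.29), Dnajb1 (-0.78 ± 0.09) and Hspa8 (-0.37 ± 0.07) fell. The groups of Hspa1b overlapped at a low level, with 2.52, 3.67 and 2.22 CPM with OGD alone and 5.06, 3.41 and 8.13 CPM in controls. With Wnt3a and Rspondin 1 added to OGD, Hspb1 averaged 109 ± 12.6 FPKM, against 52.2 ± 3.33 FPKM with OGD alone (SD, n = 3 each), a log2 change of 1.04 ± 0.11 (adjusted p = 0.00109 by edgeR), and it was the 1 gene of the list to pass there, where 0.197% of all genes did; without OGD replicate 1, and by DESeq2, 2 passed. Slc7a11, the cystine transporter gene, named after its value was seen, averaged 30.2 ± 2.56 FPKM with the proteins and 14.6 ± 3.92 FPKM with OGD alone (1.02 ± 0.18, adjusted p = 0.0657 by edgeR); it was the other of the 2 that DESeq2 called.

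Further family members were at the limit of detection. Mt4, the metallothionein of stratified epithelia, had 0 reads in each library with OGD plus Wnt3a and Rspondin 1, 0 to 1 with OGD alone and 0 to 5 in controls. Slc30a8, the transporter of insulin granules, had 0 reads in all libraries of both OGD groups and 0 to 2 in controls.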
